A study of Homo sapiens with 6 samples.

Results

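The genes described here are 10 that tell epithelial from mesenchymal cells: the keratins KRT8, KRT18 and KRT19, the intermediate filament gene VIM (vimentin), the cadherins CDH1 and CDH2, the cell surface gene EPCAM, and the tight junction genes CLDN1, OCLN and TJP1. They were chosen by name, and all 10 are among the 33707 genes of the deposited table. Messenger RNA of Huh7, a cell line grown from a human liver cancer, was sequenced at day 2 in 6 libraries. In 3 of them the cells had been transfected with miR-361-3p mimics, synthetic copies of a microRNA, and in the other 3 with mimics-NC, a negative control mimic. The labels' protocol names the same lipid transfection reagent for both. For mimic replicate 3 the cell line tag reads Huh8 although its title reads Huh7, and for mimics-NC the treatment tag reads wild type Huh7 cells. The labels do not say that replicates are separate cultures, and p-values here take in no more than the spread among these libraries, which may be technical.

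Keratins are the intermediate filaments of epithelial cells and form pairs of a type I and a type II chain. KRT8 (type II) and KRT18 (type I) make up the pair of hepatocytes, KRT19 (type I) is a marker of bile duct cells, and vimentin is the filament protein of mesenchymal cells. Cadherins join neighbouring cells through catenins, with CDH1 (E-cadherin) typical of epithelia and CDH2 (N-cadherin) of many mesenchymal and neural cells, while hepatocytes are known to carry both. Claudins and occludin span the membrane at tight junctions, and TJP1 (ZO-1) ties them to actin. A switch from CDH1 and keratins towards CDH2 and vimentin is known as the epithelial-mesenchymal transition.

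A microRNA pairs with messenger RNA mainly through its seed, bases 2 to 8. The mature sequence of miR-361-3p from RefSeq (GRCh38.p14, chrX:85903641-85903663, minus strand) is shown first, because the sites searched follow from it, with the seed in capitals. The labels give no sequence for the mimic or for mimics-NC. Below it stand the matches found in the 3' UTRs of the 10 genes, read from the GENCODE 29 transcript (GRCh38) with the longest coding part, with the match in capitals.
miR-361-3p: uCCCCCAGgugugauucugauuu
CLDN1 8mer: atcatactcaaCTGGGGGAaggggtgctcc
TJP1 8mer: gagatttacaaCTGGGGGAgggtgaagtga
CDH2 7mer-A1: ttttattatctTGGGGGAtgagaccatga
The site of CLDN1 lies at chr3:190308009-190308016 (minus strand), that of TJP1 at chr15:29701077-29701084 (minus strand) and that of CDH2 at chr18:27951690-27951696 (minus strand). The letters searched on the transcript strand were CTGGGGGA (8mer), CTGGGGG (7mer-m8) and TGGGGGA (7mer-A1), where an 8mer holds both shorter matches and was counted once. Of 9455 genes tested with a 3' UTR in GENCODE 29, 22.4% held at least 1 of them there and 5.0% an 8mer. KRT8, KRT18, KRT19, VIM, CDH1, EPCAM and OCLN held 0 in the 3' UTR of that transcript. In coding parts VIM and EPCAM held an 8mer each and KRT18 and CDH2 a 7mer-m8 each. A match is a description of the letters and does not show that the site was used.

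None of the 10 genes rose or fell with the mimic. Those whose mean over the 6 libraries reached 1 RPKM (reads per kilobase of gene per 1000000 assigned reads) were tested with limma on log2(RPKM + 0.5), where the 0.5 draws fold changes of low genes toward 0, and "rose" and "fell" mean a Benjamini-Hochberg adjusted p under 0.05 over all 13158 genes tested. Of the 10 genes 6 reached that level, and 0 of the 6 passed by limma, against 21.5% of all genes tested. Also 0 of the 6 had an unadjusted p under 0.05, against 35.9% of all genes. By voom, limma's fit of recovered reads, 0 of the 10 passed, against 21.5% of the 18891 genes with a mean of at least 10 reads. Of those among them under 1 RPKM voom called 7.11%. With every gene above 0 put into limma, 0 of the 10 passed, against 5.09% of all genes. For so few genes a count of 0 is near shares as low as 5.09% and 7.11%, and does not set the 10 apart. In 0 of the 6 did the 3 mimic libraries lie apart from the 3 mimics-NC libraries, against 41.4% of all genes. Their median absolute log2 fold change was 0.061, against 0.11 for all genes tested, and the median of the signed values was -0.0053, against 0.012 for all. The libraries held 35020139 to 52977132 assigned reads. In bulk RNA, fewer cells of a type and less RNA per cell cannot be told apart.

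**Figure D1:**
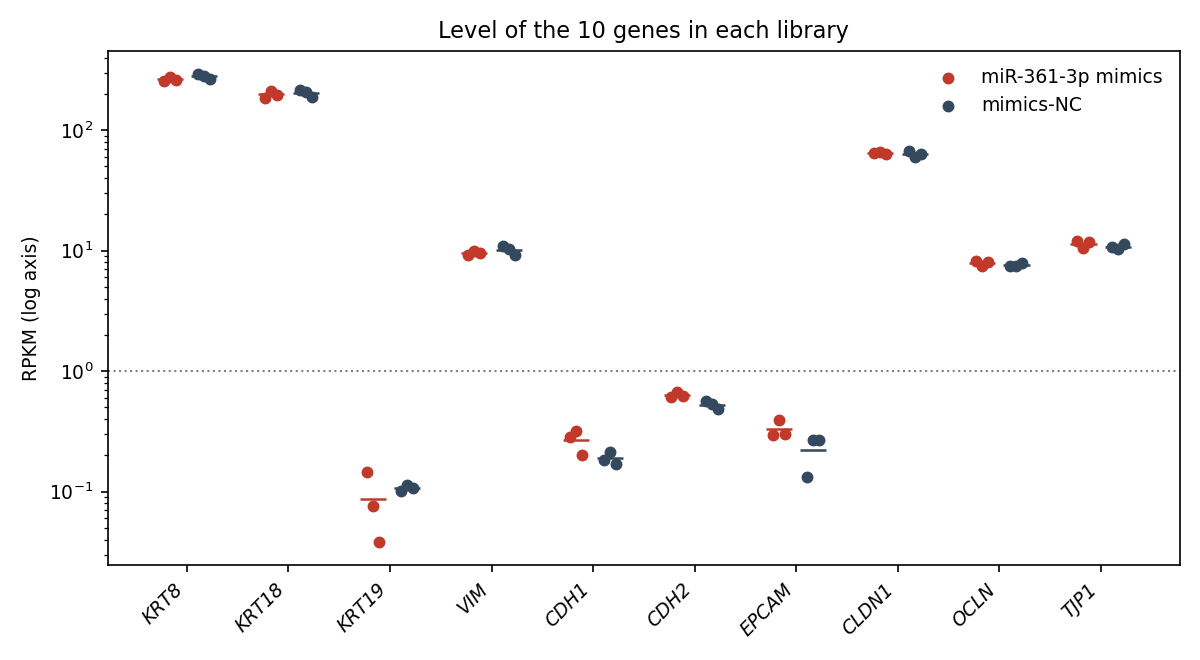
RPKM of the 10 genes on a log axis, 1 point per library, with the mean of the 3 libraries as a bar, miR-361-3p mimics (red) left of mimics-NC (dark). The dotted line is the minimum mean of 1 RPKM for the limma test. KRT8 and KRT18 lie between 186 and 292, CLDN1 between 59.8 and 66.8, VIM, OCLN and TJP1 between 7.47 and 12.1, and KRT19, CDH1, CDH2 and EPCAM under 1.

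KRT8 (chromosome 12, 52897187 to 52949954, GRCh38, as for all positions here) was the most abundant of the 10 genes, at rank 144 of all genes by mean RPKM. Its level was 254, 278 and 261 RPKM in the mimic libraries of replicates 1 to 3, against 292, 283 and 268 RPKM in the mimics-NC libraries. The groups overlapped, with mimic replicate 2 above mimics-NC replicate 3. The means were 264 ± 12.5 and 281 ± 11.8 RPKM (SD, n = 3 each), a log2 fold change of -0.087 with a 95% interval of -0.20 to 0.029 (limma, adjusted p = 0.249). By voom over all genes with a mean of at least 10 reads, the unadjusted p was 0.0276 and the adjusted p 0.102.

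KRT18 (chromosome 12, 52948871 to 52952901), which lies next to KRT8, was at rank 207. It measured 186, 211 and 197 RPKM in the mimic libraries, against 215, 205 and 189 RPKM in the mimics-NC libraries. Each group spanned nearly the range of the other. The log2 fold change was -0.035, with an interval of -0.19 to 0.12 (limma, adjusted p = 0.729), and its sign turned positive without mimic replicate 1 (0.0094) and without mimics-NC replicate 1 (0.0065).

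Within a library, KRT18 and KRT8 kept a narrow ratio. KRT18 stood at 0.732, 0.758 and 0.756 of the RPKM of KRT8 in the mimic libraries, against 0.737, 0.726 and 0.703 in the mimics-NC libraries. The log2 ratio differed by 0.052 between the groups (exact permutation test, two-sided, p = 0.2, 0.6 after adjustment over 6 ratios), where 3 libraries against 3 allow no p under 0.1. KRT8 made up 99.5% to 99.6% of the summed RPKM of type II keratins in the mimic libraries and 99.4% to 99.5% in the mimics-NC libraries. KRT18 made up 81.8% to 83.4% of that of type I keratins in the mimic libraries and 82.6% to 85.0% in the mimics-NC libraries. Next in level came KRT222, KRT23, KRT10 and KRT20, all type I, with means over the 6 libraries of 17.7, 11.8, 7.60 and 3.01 RPKM, of which KRT222 and KRT10 were named after their values were seen.

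Both genes have many processed copies in the genome. The 31 KRT8 pseudogenes in the table, led by KRT8P12, KRT8P3 and KRT8P46, held reads equal to 1.07% to 1.21% of those of KRT8 in the mimic libraries and 1.09% to 1.21% in the mimics-NC libraries. The 29 KRT18 pseudogenes held 0.389% to 0.409% and 0.329% to 0.502% of the KRT18 reads in the same order of groups. How reads were split between these near-identical copies is not known. KRT8 and KRT18 run on opposite strands and share 525 exon bases, 16.3% of the exon bases of KRT18, and the strand setting of the counting is not given in the sources used here.

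KRT19 (chromosome 17, 41523617 to 41528308) was close to absent. It had 12, 8 and 4 reads in the mimic libraries, or 0.147, 0.0765 and 0.0383 RPKM, against 10, 14 and 12 reads, or 0.101, 0.113 and 0.108 RPKM, in the mimics-NC libraries. The mimic libraries spread on both sides of the mimics-NC libraries. By voom, fitted after seeing that 4 of the 10 genes lay under the 1 RPKM minimum, the log2 fold change was -0.52 with an interval of -1.53 to 0.50 (adjusted p = 0.511), or 0.346 to 1.41 as a fold. The value was -0.92 without mimic replicate 1 and -0.052 without mimic replicate 3, and passed in neither case. KRT7, another keratin of bile ducts, averaged 0.171 ± 0.0221 RPKM in the mimic libraries and 0.158 ± 0.0566 RPKM in the mimics-NC libraries.

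VIM (chromosome 10, 17228259 to 17237593) was present at a level far below the keratin pair. Its level was 9.15, 9.94 and 9.60 RPKM in the mimic libraries, against 11.04, 10.3 and 9.15 RPKM in the mimics-NC libraries. Mimics-NC replicate 3 lay within the mimic range and the other mimics-NC libraries above it. The log2 fold change was -0.081, with an interval of -0.25 to 0.084 (limma, adjusted p = 0.449). VIM stood at 0.0472 to 0.0492 of the RPKM of KRT18 in the mimic libraries and 0.0485 to 0.0514 in the mimics-NC libraries, a log2 difference of -0.045 (exact permutation p = 0.2, adjusted 0.6).

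Antisense genes cover part of VIM. RP11-124N14.3 (chromosome 10, 17233325 to 17234833) shares 619 of its 706 exon bases with VIM and measured 39.5, 42.5 and 43.8 RPKM in the mimic libraries, against 51.7, 45.2 and 41.4 RPKM in the mimics-NC libraries, above VIM itself in every library. VIM-AS1 shares 641 bases with VIM and averaged 5.06 ± 0.353 and 4.82 ± 0.486 RPKM in mimic and mimics-NC libraries. The library kit marks strand, but as the strand setting of the counting is not known, reads of VIM and of RP11-124N14.3 cannot be told apart.

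Both classical cadherins were low in this line. CDH1 (chromosome 16, 68737225 to 68835548) had 62, 88 and 56 reads in the mimic libraries, or 0.287, 0.318 and 0.203 RPKM, against 48, 70 and 50 reads, or 0.184, 0.214 and 0.170 RPKM, in the mimics-NC libraries. Mimic replicates 1 and 2 were above all mimics-NC libraries, and mimic replicate 3 fell among them. By voom the log2 fold change was 0.47, with an interval of 0.0060 to 0.93, an unadjusted p of 0.0473 and an adjusted p of 0.149. Without mimic replicate 3, the library with the Huh8 tag, the adjusted p was 0.046 and the log2 fold change 0.68, and with any other library left out CDH1 did not pass (highest adjusted p = 0.446). Voom called 21.5% of the 18891 genes with a mean of at least 10 reads, and 7.11% of those among them under 1 RPKM.

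CDH2 (chromosome 18, 27950966 to 28177446), which holds a 7mer-A1 in its 3' UTR, had 106, 150 and 137 reads in the mimic libraries, or 0.611, 0.677 and 0.619 RPKM. In the mimics-NC libraries it had 118, 140 and 114 reads, or 0.565, 0.534 and 0.484 RPKM. All 3 mimic libraries were above the 3 mimics-NC libraries, as were those of EPCAM, so the groups lay apart in 2 of the 4 genes under 1 RPKM, against 20.0% of all genes of that class with a mean of at least 10 reads. By voom its log2 fold change was 0.28, with an interval of -0.027 to 0.58 (adjusted p = 0.199).

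On the opposite strand, RP11-354M1.2 shares 347 exon bases with CDH1 and AC015933.2 shares 136 with CDH2, each averaging under 1 RPKM in both groups.

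In the ratio of the 2 cadherins the groups overlapped. CDH2 stood at 2.13, 2.13 and 3.05 times the RPKM of CDH1 in the mimic libraries, against 3.07, 2.50 and 2.85 times in the mimics-NC libraries. On the log2(RPKM + 0.5) scale the ratio differed by -0.011 (exact permutation p = 0.8, adjusted 0.8), and by -0.11 with 0.1 in place of 0.5. The added 0.5 exceeds every CDH1 value and draws this difference toward 0. As 3 libraries against 3 allow no p under 0.1, the test could not have passed and does not show that the balance stayed the same. Of 21 cadherin genes with a CDH number, 1 had a mean of at least 1 RPKM, CDH17, the liver-intestine cadherin. CDH17 rose, with 1.44, 1.47 and 1.47 RPKM in the mimic libraries, against 0.929, 0.653 and 0.624 RPKM in the mimics-NC libraries (log2 fold change 0.67, limma adjusted p = 0.00574). All 3 mimics-NC libraries lay under 1 RPKM, so CDH17 reached the minimum mean, and with it the test, through its mimic libraries. The ratio of its means was 1.98, as the added 0.5 draws the log2 fold change toward 0.

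EPCAM (chromosome 2, 47345158 to 47387601), an adhesion molecule of simple epithelia and of hepatic progenitors, was under 1 RPKM as well. It had 26, 44 and 34 reads in the mimic libraries, or 0.295, 0.390 and 0.302 RPKM. In the mimics-NC libraries it had 14, 36 and 32 reads, or 0.132, 0.270 and 0.267 RPKM. The groups lay apart, and mimics-NC replicate 1 was well under the other libraries. Voom put the log2 fold change at 0.59, with an interval of -0.064 to 1.25 (adjusted p = 0.205), or 0.956 to 2.38 as a fold. Without mimics-NC replicate 1 the value was 0.29 (adjusted p = 0.586).

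**Figure D2:**
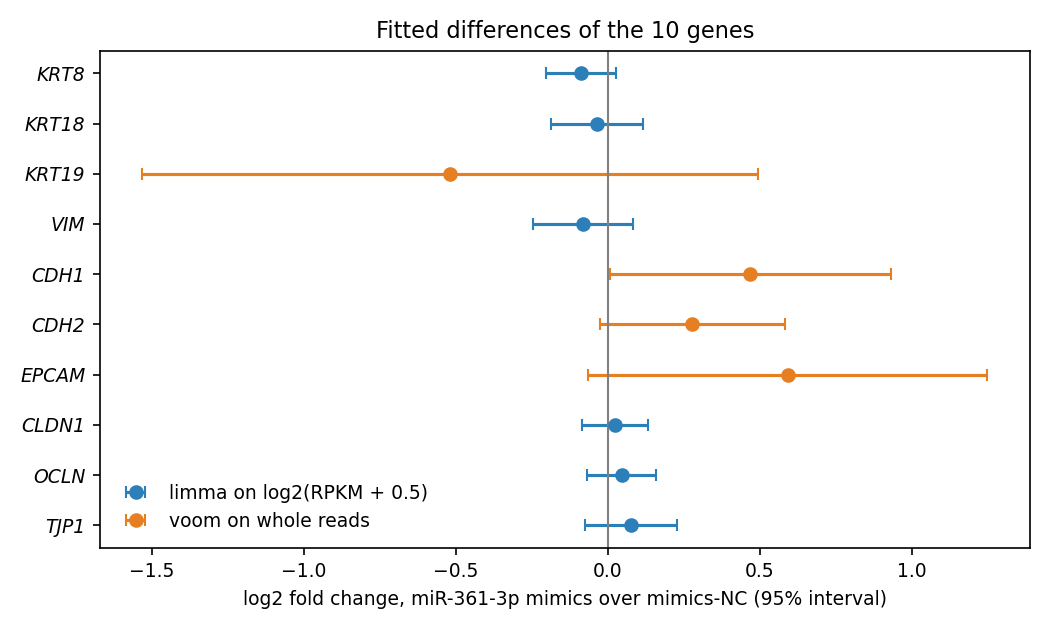
Log2 fold change of the 10 genes, miR-361-3p mimics over mimics-NC, with its 95% interval, by limma on log2(RPKM + 0.5) for 6 genes (blue) and by voom on whole reads for the 4 genes under 1 RPKM (orange). The intervals of the 6 abundant genes stay between -0.25 and 0.23 and include 0, and those of KRT19, CDH1, CDH2 and EPCAM are wider.

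CLDN1 (chromosome 3, 190305701 to 190322475), whose 3' UTR holds the 8mer shown above, was the main claudin. It measured 64.5, 65.3 and 62.9 RPKM in the mimic libraries, against 66.8, 59.8 and 62.9 RPKM in the mimics-NC libraries. The mimic values lay inside the mimics-NC range. Means were 64.2 ± 1.25 and 63.2 ± 3.53 RPKM, a log2 fold change of 0.025 with an interval of -0.084 to 0.13 (limma, adjusted p = 0.738), or 0.943 to 1.10 as a fold, and its sign turned negative without mimics-NC replicate 2 (-0.014). Of the summed mean RPKM of the 20 genes with a CLDN number, a set without CLDND1, CLDN1 made up 85.2%.

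TJP1 (chromosome 15, 29699367 to 29968865) also holds an 8mer. Its level was 12.1, 10.4 and 11.8 RPKM in the mimic libraries, against 10.7, 10.3 and 11.3 RPKM in the mimics-NC libraries. Mimic replicate 2 lay among the mimics-NC values and mimic replicates 1 and 3 above them. Limma put its log2 fold change at 0.076, with an interval of -0.074 to 0.23 (limma, adjusted p = 0.433). Across the tested genes with an 8mer in the 3' UTR the median log2 fold change was 0.0067 and 10.1% fell, against 0.0098 and 11.3% for those with no match.

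OCLN (chromosome 5, 69492292 to 69558104), which codes for occludin, measured 8.22, 7.47 and 8.02 RPKM in the mimic libraries, against 7.52, 7.50 and 7.89 RPKM in the mimics-NC libraries. The mimic range enclosed the mimics-NC range. Its log2 fold change was 0.046, with an interval of -0.067 to 0.16 (limma, adjusted p = 0.534). Ratios to TJP1 moved little: the log2 difference was -0.030 for OCLN (exact permutation p = 0.4, adjusted 0.8) and -0.052 for CLDN1 (p = 0.6, adjusted 0.8).

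The precision behind these values was ordinary for the table. The standard error of the log2 fold change was 0.0461 for CLDN1, 0.0482 for OCLN, 0.0494 for KRT8, 0.0638 for KRT18 and TJP1 and 0.0698 for VIM, against a median of 0.0624 over all genes tested. As folds, the 95% intervals of these 6 genes reached down to 0.844 (VIM) and up to 1.17 (TJP1).

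Around these genes, 13 lists of keratins, junction, polarity and transition genes held 214 others in the table, of which 94 were tested by limma. Of the 94, 20 rose and 10 fell, with a median log2 fold change of 0.0077 and a median absolute value of 0.14, against 11.7% higher and 9.85% lower over all genes. With TMM scaling 17 list genes rose and 11 fell, and with median-of-ratios scaling 18 rose and 11 fell. Over all genes the balance depended on the scaling, with 1539 higher and 1296 lower as tested here, 1261 and 1567 with TMM, and 1356 and 1453 with median-of-ratios. Of these 30 genes 16 kept their call with each library left out in turn.

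Among the other keratins 2 of 4 tested rose and 0 fell by limma, against 11.7% and 9.85% of all genes. KRT20, a keratin of gut epithelium, had 3.84, 3.63 and 3.49 RPKM in the mimic libraries, against 2.73, 2.56 and 1.83 RPKM in the mimics-NC libraries (log2 fold change 0.54, adjusted p = 0.0206), a call lost without mimic replicate 1 or 2 (up to 0.0622). KRT23 had 12.1, 13.7 and 13.5 RPKM, against 11.6, 9.73 and 10.4 RPKM (log2 fold change 0.30, adjusted p = 0.0305), a call lost without mimic replicate 2 or 3 or mimics-NC replicate 2 or 3 (up to 0.0935). The log2 ratio of KRT23 to KRT18, chosen after the values were seen, was 0.33 higher in the mimic libraries with no overlap (exact permutation p = 0.1, the smallest possible, and 0.1 adjusted over 3 ratios). Of 8 other keratins tested by voom 2 rose and 1 fell, against 21.5% of all genes called. The gene that fell, KRT81, averaged 0.456 ± 0.0971 RPKM in the mimic libraries, against 0.791 ± 0.0700 RPKM in the mimics-NC libraries (voom, adjusted p = 0.0157). That call, of a gene named after its values were seen, was lost without mimic replicate 2 or mimics-NC replicate 2 (up to 0.114).

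In the list of keratin and vimentin partners 2 of 13 rose and 5 fell, against 11.7% and 9.85% of all genes. The B-type nuclear lamins, filament proteins of the nucleus, fell furthest: LMNB1 to 25.3 ± 0.372 RPKM in the mimic libraries, against 42.8 ± 0.644 RPKM in the mimics-NC libraries, and LMNB2 to 22.7 ± 0.618 RPKM, against 32.7 ± 1.22 RPKM (limma, adjusted p = 9.52e-05 and 0.000449). The A-type lamin gene LMNA, in the same list and named after its values were seen, did not pass, with 27.1 ± 1.17 RPKM in the mimic libraries and 25.1 ± 1.37 RPKM in the mimics-NC libraries, which overlapped (adjusted p = 0.186). NES, the filament protein nestin, measured 1.36 ± 0.0655 and 1.68 ± 0.0745 RPKM, and its call did not survive leaving out any library (adjusted p up to 0.129). LMNB1 stood at 2.81, 2.55 and 2.60 times the RPKM of VIM in the mimic libraries, against 3.92, 4.19 and 4.60 times in the mimics-NC libraries, a log2 difference of -0.67 (exact permutation p = 0.1, adjusted 0.1, chosen after the values were seen).

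The desmosome list, of the junctions that anchor keratins, had 3 of 6 genes higher and 1 lower, against 11.7% and 9.85% of all genes. PERP, a desmosomal membrane protein, rose to 25.9 ± 0.673 RPKM in the mimic libraries, against 17.1 ± 0.449 RPKM in the mimics-NC libraries. The desmosomal cadherin DSG2 rose to 2.95 ± 0.170 RPKM, against 2.19 ± 0.0101 RPKM, and the plakophilin PKP2, which is also in the list of filament partners, to 5.72 ± 0.123 RPKM, against 4.43 ± 0.188 RPKM. The plakophilin relative PKP4 fell to 9.92 ± 0.515 RPKM, against 13.7 ± 0.396 RPKM. Limma gave adjusted p of 0.00029, 0.00575, 0.00358 and 0.00129 for PERP, DSG2, PKP2 and PKP4. Desmoplakin (DSP), which links keratins to the junction and was named after its values were seen, averaged 148 ± 4.96 and 147 ± 4.69 RPKM.

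Of 10 cadherin and catenin genes tested, 1 rose (CDH17, which reached the test through its mimic libraries) and 1 fell. These counts are near the 11.7% higher and 9.85% lower of all genes. The gene that fell was CTNNAL1, an alpha-catenin relative, with 19.8 ± 0.542 RPKM in the mimic libraries, against 24.1 ± 0.595 RPKM in the mimics-NC libraries (limma, adjusted p = 0.00311). Of 5 nectin and afadin genes 0 rose and 1 fell by limma, which for so few genes is near the same shares. NECTIN2, an adhesion molecule of adherens junctions, fell to 11.9 ± 0.171 RPKM, against 13.9 ± 0.343 RPKM (limma, adjusted p = 0.00794).

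The tight junction list had 6 higher and 1 lower among its 16 tested members (limma), against 11.7% and 9.85% of all genes. In the claudin list 0 of 5 passed, a count too small to set it apart from those shares. Of these 5, 2 had an unadjusted p under 0.05, against 35.9% of all genes. Voom took in 10 of the claudin list and put 0 higher and 2 lower, near the 21.5% of all genes called. TJP3 (ZO-3) rose to 2.11 ± 0.111 RPKM in the mimic libraries, against 1.69 ± 0.124 RPKM in the mimics-NC libraries, which passed in 1 of the 6 removals, that of mimics-NC replicate 1 (otherwise up to 0.116). ARHGEF2, a nucleotide exchange factor at junctions, held its call only without mimics-NC replicate 2 (up to 0.0861), and the scaffold MAGI1 lost its call without mimic replicate 1 or 3 (up to 0.061). Of the claudin list, CLDND1, which codes for a claudin domain protein, and the claudin CLDN23 averaged 7.94 ± 0.275 and 4.02 ± 0.463 RPKM in the mimic libraries and 8.32 ± 0.261 and 3.96 ± 0.248 RPKM in the mimics-NC libraries.

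Among polarity genes 4 of 13 rose and 0 fell by limma, against 11.7% and 9.85% of all genes. AMOT, an angiomotin, rose to 3.30 ± 0.0271 RPKM in the mimic libraries, against 2.66 ± 0.0834 RPKM in the mimics-NC libraries (adjusted p = 0.00941). PATJ, PARD3 and MPP5, scaffolds of the apical complexes, had log2 fold changes of 0.24, 0.21 and 0.16. Their calls held only without mimics-NC replicate 1, mimic replicate 1 and mimics-NC replicate 3, in that order (adjusted p up to 0.103, 0.0867 and 0.123), and that of MPP5 was lost under TMM and median-of-ratios scaling and with no intensity trend, that of PARD3 under TMM scaling. Of 4 gap junction genes 1 rose and 1 fell by limma, against the same shares of all genes. GJD3 rose to 3.98 ± 0.225 RPKM, against 2.84 ± 0.317 RPKM. GJC1 measured 1.08 ± 0.0322 and 1.41 ± 0.0498 RPKM, and its call did not survive leaving out any library (limma, adjusted p up to 0.0932).

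**Figure D3:**
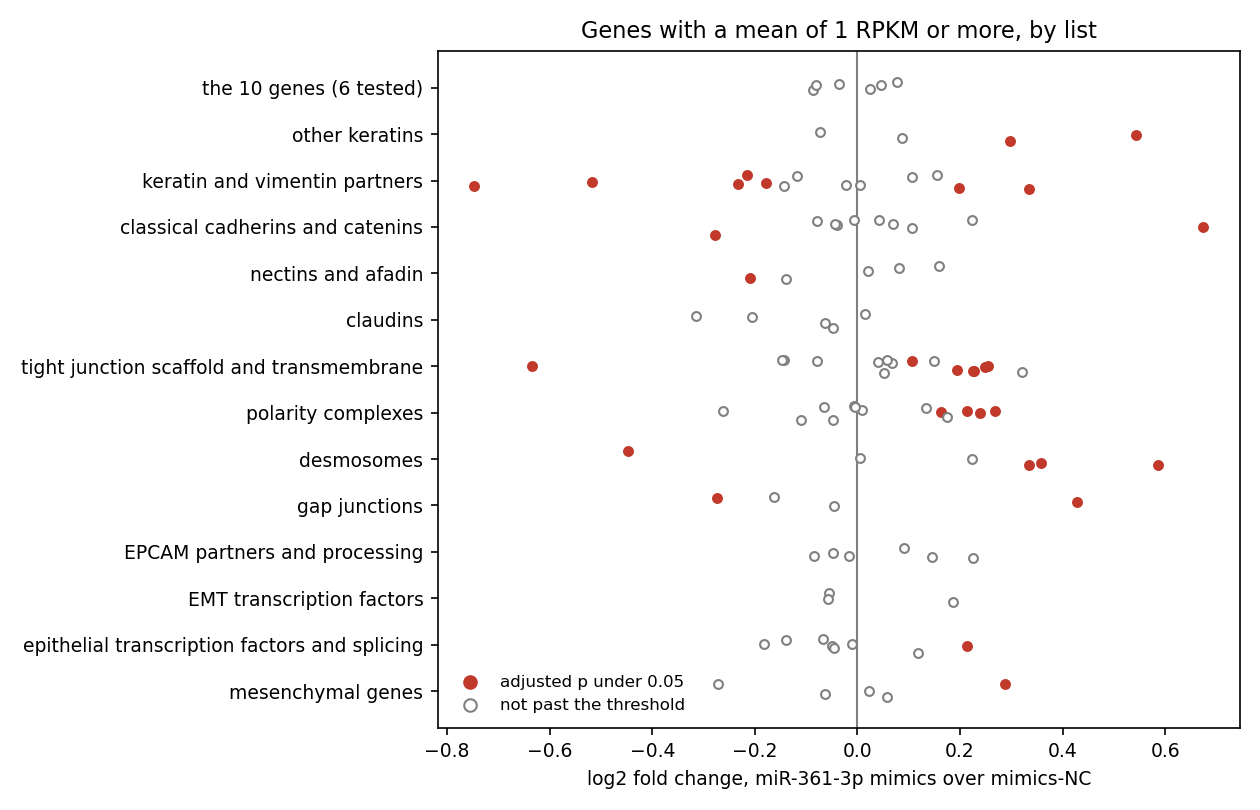
Log2 fold change, miR-361-3p mimics over mimics-NC, of each gene averaging 1 RPKM or more, by list, 1 point per gene, filled where the limma adjusted p was under 0.05. The 6 tested genes in the top row are all open and lie between -0.087 and 0.076. Each list holds filled points except those of claudins, EPCAM partners and epithelial-mesenchymal transition factors.

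The factors known to switch these genes were mostly low. Of 3 tested transcription factors of the epithelial-mesenchymal transition 0 passed by limma, and 1 had an unadjusted p under 0.05, against 35.9% of all genes. Of 11 tested by voom 1 rose and 2 fell, against 21.5% of all genes called. ZEB1, a repressor of CDH1, averaged 10.6 ± 0.388 RPKM in the mimic libraries and 11.04 ± 0.395 RPKM in the mimics-NC libraries, and TCF3 2.92 ± 0.1001 and 2.51 ± 0.196 RPKM (adjusted p = 0.412 and 0.0844). Of 8 epithelial factors 1 rose and 0 fell by limma, near the 11.7% and 9.85% of all genes. ELF3 rose to 7.57 ± 0.205 RPKM in the mimic libraries, against 6.46 ± 0.0958 RPKM in the mimics-NC libraries (limma, adjusted p = 0.0106). Of 6 tested EPCAM partners 0 passed by limma, and 2 had an unadjusted p under 0.05, against 35.9% of all genes. Of 10 EPCAM partners tested by voom 2 rose and 0 fell, near the 21.5% of all genes called. ADAM17, a protease that cleaves EPCAM, averaged 19.3 ± 0.997 RPKM in the mimic libraries and 19.5 ± 0.906 RPKM in the mimics-NC libraries.

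Of 5 mesenchymal genes at 1 RPKM or more 1 rose and 0 fell by limma, against 11.7% and 9.85% of all genes. COL5A2 rose to 11.8 ± 0.267 RPKM in the mimic libraries, against 9.55 ± 0.678 RPKM in the mimics-NC libraries (limma, adjusted p = 0.0113). By voom, which also took in those under 1 RPKM, 1 of 24 rose and 8 fell. Over all 18891 genes voom put 2184 higher and 1886 lower, and it called 7.11% of those under 1 RPKM. Of those with a mean under 1 RPKM over the 6 libraries, named after their values were seen, COL1A2 measured 0.645, 0.781 and 0.579 RPKM in the mimic libraries, against 1.42, 1.14 and 0.783 RPKM in the mimics-NC libraries (adjusted p = 0.00141). FBN1, fibrillin, measured 0.139, 0.128 and 0.120 RPKM, against 0.276, 0.275 and 0.196 RPKM (adjusted p = 0.00021). In all 8 that fell, mimics-NC replicate 3 was the lowest of its group. The count that fell was 3 without mimic replicate 3 or mimics-NC replicate 1, 4 without mimics-NC replicate 2, 5 without mimic replicate 1 and 11 without mimics-NC replicate 3, and COL1A1, COL1A2 and FBN1 kept their call with each library left out. The 7 fibroblast or stellate markers, of which COL1A1, COL1A2 and COL3A1 are 3, summed to 1.87 to 2.43 RPKM in the mimic libraries and 2.38 to 4.13 RPKM in the mimics-NC libraries, with 0 of the 7 at a mean of 1 RPKM and none at 0 in all libraries, and the part of other cells in these values was not tested.

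**Figure D4:**
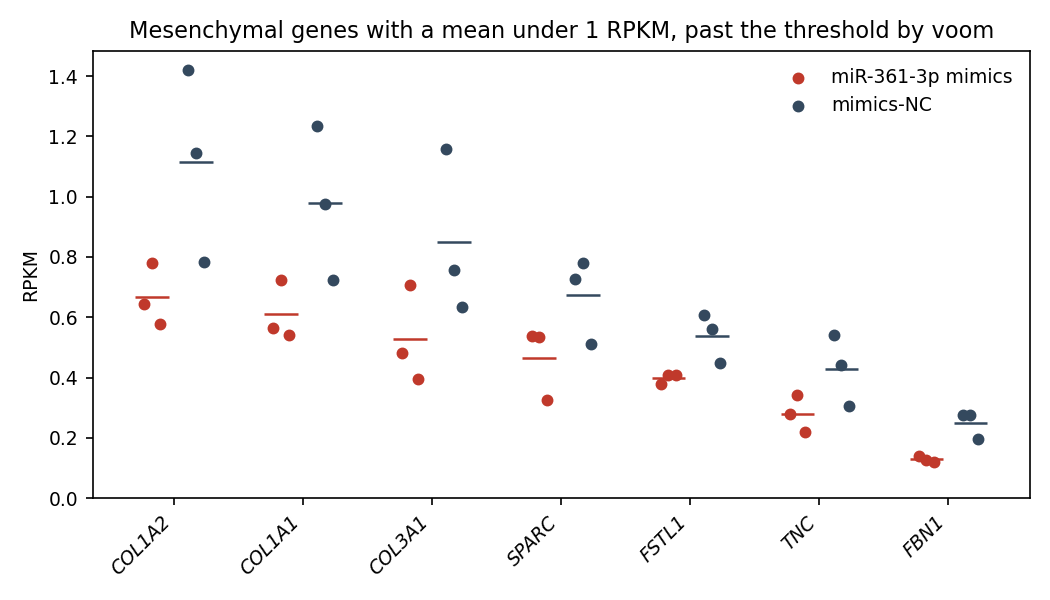
RPKM of 7 mesenchymal genes with a mean under 1 RPKM that voom put past the threshold, 1 point per library with the mean as a bar, miR-361-3p mimics (red) left of mimics-NC (dark). The mimic means are the lower ones in all 7, and the groups overlap in COL1A1, COL3A1, SPARC and TNC.

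Markers of the labelled cell type were present. Of 10 hepatocyte or hepatoma markers 9 had a mean of at least 1 RPKM, their sum being 3266 to 3351 RPKM in the mimic libraries and 3397 to 3462 RPKM in the mimics-NC libraries. AFP, which Huh7 cells are known to make, was low among them at 1.18 ± 0.168 and 1.24 ± 0.0512 RPKM, and TTR was under 1 RPKM. The 6 cholangiocyte markers summed to 17.5 to 18.5 RPKM in the mimic libraries and 13.5 to 15.5 RPKM in the mimics-NC libraries, most of it KRT23, with 2 of the 6 at a mean of 1 RPKM. As KRT23 is itself among the 6, their sum is no separate measure beside its rise. The part of other cells in these values was not tested. The 5 endothelial markers summed to 4.32 to 4.67 and 4.27 to 4.37 RPKM, nearly all PECAM1, and the 5 immune markers to 44.4 to 50.6 and 43.7 to 47.6 RPKM, nearly all CD68 and LYZ.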

How the data were processed

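Per the file headers and the labels, the authors deposited 1 table of RPKM for 33707 genes in 6 libraries, beside exon positions and gene lengths (bases, another unit). Per the submitters' processing notes, the authors used Trimmomatic 0.36, featureCounts of Subread 1.5.1, edgeR 3.12.1 and GRCh38. No source used here names the aligner, annotation release or strand setting. Length-weighted RPKM summed to 1000000 per library, and 100% of the weighted values were within 0.01 of a whole read number once multiplied by a fitted total, which gave the depths and the reads for voom.

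Tests were fitted over all genes with limma 3.58.1 in R 4.3.3 (moderated, intensity trend, two-sided). The limma fit at a mean of at least 1 RPKM was checked on simulated data with the same spread for every gene. Voom was not checked in this way. Ratios within a library were compared by exact permutation. Intervals are 95% and cover the spread between libraries. Genes were named by rule: the 10 genes, up to 4 genes past the threshold of each list with the largest change (or the 2 most abundant), and the 3 pseudogenes with the most reads. Some genes that the rule names are not reported here. The 10 genes and the lists were chosen with earlier results of these data known. Of 233 entries in the 13 lists 218 were found, 2 under an older symbol. Deviations of same-numbered libraries had r of -0.0524, -0.0159 and 0.0235, against -0.113 to 0.121 for different numbers. The numbers were not taken to pair libraries, but with 3 libraries per group these values cannot exclude that they do. The count models planned were not run, the deposited values being RPKM, although the recovered reads used for voom could have served them.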

Additional observations from a re-analysis of the deposited data

How the results depend on the processing

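KRT8, KRT18, VIM, CLDN1, TJP1 and OCLN passed in 0 of 17 alternatives each. For KRT19, CDH1, CDH2 and EPCAM 7 alternatives were run beside voom, and CDH1 alone passed in 1 of them, voom without mimic replicate 3 (adjusted p = 0.046). The log2 fold change lay between -0.12 and -0.059 for KRT8, -0.087 and 0.0094 for KRT18, -0.15 and -0.022 for VIM, -0.014 and 0.066 for CLDN1, 0.035 and 0.14 for TJP1 and 0.019 and 0.084 for OCLN. For CDH1, CDH2, EPCAM and KRT19 the limma fit over all genes above 0 gave 0.16, 0.14, 0.20 and -0.053, drawn toward 0 by the added 0.5. With 1 library left out, voom gave 0.32 to 0.68, 0.22 to 0.32, 0.29 to 0.77 and -0.92 to -0.052 for the same genes. The log2 ratio of CDH2 to CDH1 was -0.11 with 0.1 added. The number of genes past the threshold was 2835, 1716 when all genes above 0 were tested and 1780 to 2150 with 1 library left out (1820 without mimic replicate 3, 1780 and 1859 without mimics-NC replicates 2 and 3). Of 94 list genes tested 30 passed, against 21.5% of all genes. Over all genes above 0 the count was 18 of 214, against 5.09% of all genes. At a mean of at least 5 RPKM it was 18 of 54, against 2071 of all 6636 genes tested. By voom over genes with at least 10 reads it was 57 of 153, against 21.5% of all genes. With 1 library left out 19 to 24 of the 94 passed. With the replicate number as a block, 1976 genes, 0 of the 6 tested genes and 23 list genes passed, and whether the numbers pair libraries is not known. The planned quasi-likelihood and DESeq2 fits were not run. Voom over at least 10 reads, and its repeats without 1 library, were chosen after seeing the data. Depth limits KRT19, CDH1, CDH2 and EPCAM, which rest on 4 to 150 reads per library.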
